A study of Homo sapiens with 4 samples.

Results

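The initiator methionine tRNA carries the methionine that starts every cytosolic protein. Human cells hold several near-identical gene copies of it, and the SOX4 peaks at 9 of them are described here by presence, height and position. U251, a long-established line grown from a human glioblastoma, was made to overexpress SOX4 with an HA epitope tag, and its chromatin was taken for immunoprecipitation and sequencing (ChIP-seq) 3 days after infection with virus. The 3 immunoprecipitations (IP 1, IP 2 and IP 3) each used 150 µg of chromatin and 5 µg of an antibody to HA, and the 1 input used 10 µg of chromatin from such cells. All 4 samples therefore carry the overexpressed tagged protein, and an immunoprecipitation from cells without it was not analysed here. The labels call the immunoprecipitations independent and do not say that the cells came from separate cultures, so the spread below may be technical.

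The 9 genes are given by position alone, as a list of gene starts on hg19, and no peak value enters the rule. On chromosome 6 lie 7 of them, called here chr6 locus 1 to chr6 locus 7 in order of position, with starts at 26286754, 26313352, 26330529, 27300764, 27560600, 27745664 and 27870271. The chr1 locus starts at 153643726 and the chr17 locus at 80452597. A peak belonged to a locus when any of its bases lay within 500 bp of the start. Of 627, 524 and 407 peaks in IP 1, IP 2 and IP 3, 10, 9 and 7 did so. The RefSeq table (GRCh38.p14) names 8 initiator genes, TRX-CAT1-1 on chromosome 1, TRX-CAT1-8 on chromosome 17 and 6 on chromosome 6, each 72 bp long. The names of the chromosome 1 and 17 loci follow from there being 1 such gene per chromosome, whereas the 6 names on chromosome 6 were not paired with the 7 positions.

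As background, tRNA genes are transcribed by RNA polymerase III, and their promoter lies inside the gene, in the A and B boxes that the factor TFIIIC binds. The initiator tRNA is distinct from the elongator methionine tRNA, which reads internal methionine codons, and it is the only tRNA that enters the ribosome with the start codon. SOX4 is a transcription factor whose HMG box binds the minor groove of DNA. The title of the series names the repression of specific tRNAs by SOX4 as the question.

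SOX4 peaks covered the start of 8 of the 9 initiator genes in at least 1 immunoprecipitation. At 5 genes (chr6 loci 1, 2, 3 and 5 and the chr17 locus) all 3 lists had such a peak. At 2 genes (chr6 locus 7 and the chr1 locus) IP 1 and IP 2 had one, at chr6 locus 4 only IP 1 did, and chr6 locus 6 had none. Of the 8 merged regions (overlapping peaks of the 3 lists joined) at these genes, 5 thus held a peak of every list, against 30.5% of all 862 merged regions, and 7 held a peak of at least 2 lists, against 49.0%. These shares describe the loci beside the whole set, and no test was made. By list, IP 1 had a peak over 8 of the starts, IP 2 over 7 and IP 3, which had the fewest tags, over 5.

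**Figure D1:**
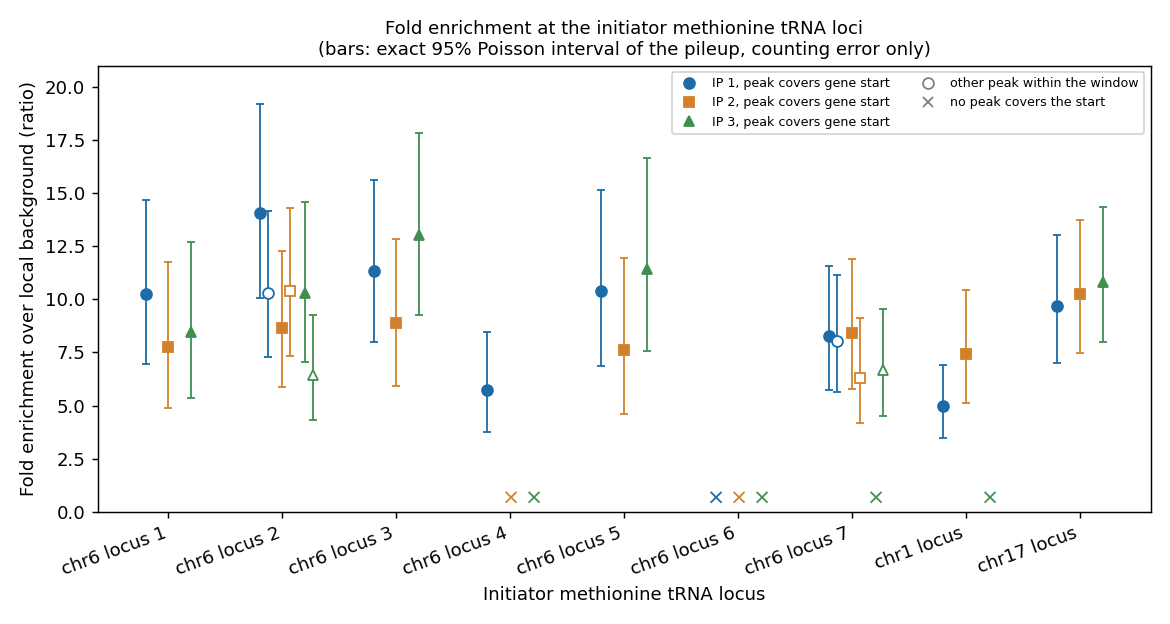
Fold enrichment over the local input background (ratio, vertical axis) of each peak within 500 bp of the 9 initiator gene starts, by immunoprecipitation. Filled symbols are peaks that cover the start, open symbols are other peaks in the window, crosses mark lists with no peak over the start, and bars are exact 95% Poisson intervals of the pileup, which cover counting error only. The 5 loci with 3 filled symbols lie between 7.63-fold and 14.1-fold, and chr6 locus 6 has crosses only.

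The pileup is the number of extended reads stacked at a peak's summit, and the fold is the authors' ratio of that pileup to the local input background, each with 1 added. The highest mean folds over a gene start were at chr6 loci 2 and 3, whose starts lie 17.2 kb apart. At chr6 locus 3 the pileups were 35, 26 and 37 reads in IP 1, IP 2 and IP 3, and the folds 11.3, 8.87 and 13.0 (mean 11.1 ± 2.09, SD, n = 3). IP 3 was highest there and IP 2 lowest, and the peak ranked 67th of 627, 126th of 524 and 18th of 407 by fold. At chr6 locus 2 the pileups over the start were 38, 29 and 30 reads and the folds 14.1, 8.64 and 10.3 (mean 11.0 ± 2.78, SD, n = 3). The IP 1 value was the highest fold of any initiator gene in any list, with a counting interval from 10.1 to 19.2, and it ranked 25th of 627.

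The chr17 locus, TRX-CAT1-8, had the smallest spread of folds over the lists among these 5 genes. Its pileups of 41, 43 and 46 reads were the highest at any initiator gene in each list, and the folds were 9.67, 10.2 and 10.8 (mean 10.2 ± 0.58, SD, n = 3). The 3 values differed by less than their counting error. Its peaks were also broad, at 454, 420 and 296 bp against list medians of 221, 208 and 237 bp, and ranked 9th of 627, 6th of 524 and 82nd of 407 by width. The local background there was 2.30 to 2.62 times the genome average, and the fold was not the highest of these genes in any list but IP 2.

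Chr6 loci 5 and 1 had fewer reads than the other genes covered in every list. Their backgrounds were lower too, except that in IP 1 chr6 locus 2, at 1.22 times the genome average, lay below chr6 locus 1. At chr6 locus 5 the pileups were 25, 17 and 25 reads and the folds 10.4, 7.63 and 11.4 (mean 9.82 ± 1.97, SD, n = 3). Its background was 1.03, 1.00 and 1.00 times the genome average, and the genome average is the lowest value that the peak caller allows. At chr6 locus 1 the pileups were 28, 20 and 21 reads and the folds 10.3, 7.75 and 8.45 (mean 8.82 ± 1.30, SD, n = 3), on a background of 1.26 times the genome average in each list.

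The order of these 5 genes by mean fold was chr6 locus 3, chr6 locus 2, chr17, chr6 locus 5 and chr6 locus 1. Each neighbouring pair in that order differed by less than the larger of the 2 SDs and changed order between lists. Neighbouring places are therefore not firm. Within every list chr6 locus 3 was above chr6 loci 1 and 5, and chr6 locus 2 was above chr6 locus 1. All other pairs changed order between lists. IP 2 had the lowest fold at 4 of the 5 genes, all but the chr17 locus. The highest fold was 1.32, 1.63, 1.47, 1.50 and 1.12 times the lowest at chr6 loci 1, 2, 3 and 5 and the chr17 locus, where the median over all 263 regions shared by the 3 lists was 1.35.

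The other 3 genes with a peak lacked it in 1 or 2 lists. At chr6 locus 7 the peak over the start had 32 reads in IP 1 and 30 in IP 2, with folds of 8.25 and 8.42. IP 3 had no peak over this start but had one beside it, with its summit 461 bp towards higher coordinates, 28 reads and a fold of 6.68. IP 1 and IP 2 had that second peak too, at 489 and 507 bp, with 34 and 26 reads and folds of 8.06 and 6.29. Chr6 locus 7 therefore counts as present in all 3 lists by the 500 bp rule, which gives 6 genes in place of 5, while its own start was covered in 2.

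The chr1 locus, TRX-CAT1-1, rose from the highest background of the initiator genes. Its pileup was 33 reads in IP 1 and 31 in IP 2, within the range of the other initiator genes, but the folds were 4.96 and 7.41, the lowest of these genes in each list. The background was 4.03 times the genome average in IP 1 and 2.44 times in IP 2, although both were taken from the same input. In IP 2 the chr17 locus was close to it, at 2.42 times, so the background stood apart in IP 1 alone. The next lowest folds over a start were 5.76 at chr6 locus 4 in IP 1 and 7.63 at chr6 locus 5 in IP 2. By fold the IP 1 peak ranked 498th of 627 and the IP 2 peak 200th of 524. IP 3 had no peak over this start. It had one 718 bp towards higher coordinates, with 22 reads and a fold of 9.08, where IP 1 also had a peak, at 716 bp, with 15 reads and a fold of 5.83.

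Chr6 locus 4 had a peak in IP 1 alone, with 24 reads, a fold of 5.76 (counting interval 3.77 to 8.45) and a rank of 384th of 627. Its −log10 q of 8.61 was the lowest of the 20 peaks that covered an initiator gene start. Chr6 locus 6 had no peak in any list. The nearest regions to it lay 24.3 kb towards lower and 13.3 kb towards higher coordinates. Both held a peak of every list, with mean folds of 12.7 ± 0.72 and 7.53 ± 0.77 (SD, n = 3).

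A missing peak does not show that SOX4 was absent, but the reads a call needed can be computed. Taking the background of IP 1 at chr6 locus 4, scaled to the other lists, a summit needed 14 reads in IP 2 and 14 in IP 3 to reach the weakest p in those lists. The 24 reads of IP 1 scale to 22.5 and 21.1 reads there. Before scaling, those 24 reads have a counting interval from 15.4 to 35.7, and they come from the only list that called the peak. The scaling used here corrects for tags and extension length only, not for how well each immunoprecipitation worked. At chr6 locus 7 a call in IP 3 needed 14 or 13 reads on the background of IP 1 or IP 2, and their pileups scale to 28.1 reads each. At the chr1 locus it needed 19 or 15 reads, and the pileups scale to 29.0 and 29.1. At chr6 locus 6, which has no background value of its own, the median background of each list gives 12, 13 and 13 reads. A call also needs the signal to stay past the threshold over the extension length, since the narrowest peaks of the lists were 163, 155 and 179 bp wide.

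**Figure D2:**
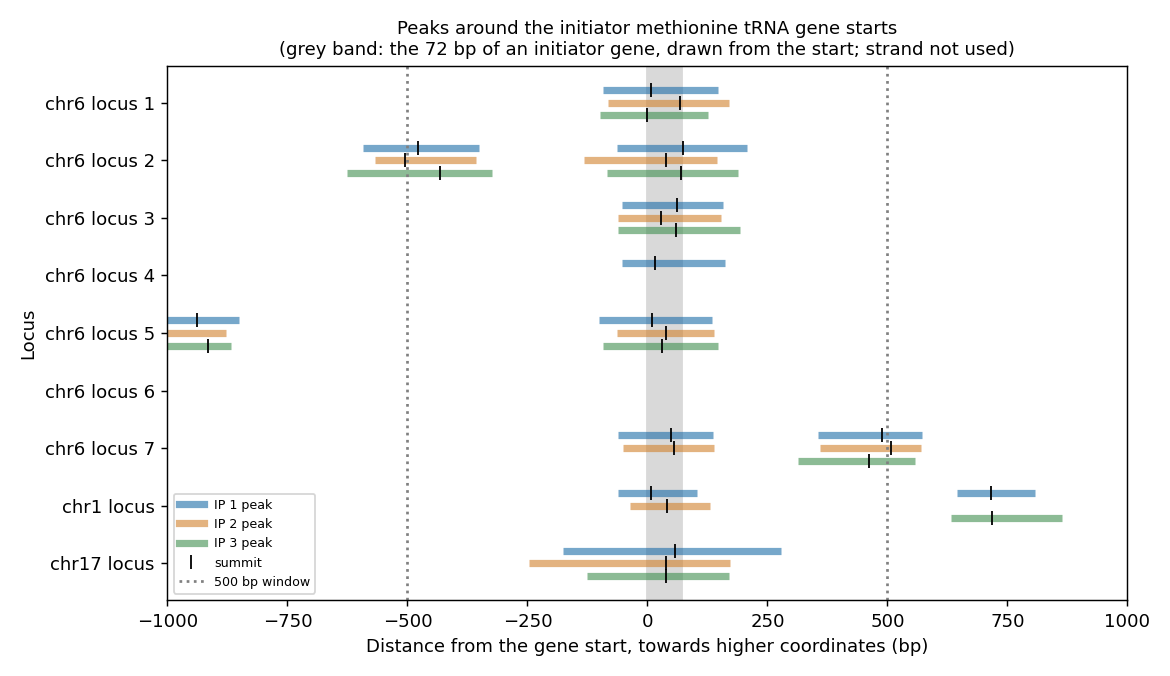
Extent of each peak (coloured bars) and its summit (black tick) relative to the gene start, in bp towards higher coordinates, for the 9 loci. The grey band is the 72 bp of an initiator gene drawn from the start, and dotted lines mark the 500 bp window. The 20 peaks over a start have summits between −1 and 75 bp, and separate peaks lie beside chr6 loci 2, 5 and 7 and the chr1 locus.

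Most summits lay within a gene length of the start, towards higher coordinates. The 20 peaks that covered a start had summits from −1 to 75 bp from it, with a median of 38.5 bp, and 18 of them lay in the 72 bp from the start. This reading takes each start as the lower end of its gene. The strand of the genes was not used, so no offset is given as upstream or downstream, and peaks about 200 bp wide do not separate 1 internal promoter box from the other. Over the 3 lists the summit moved by 68 bp at chr6 locus 1, 37 at locus 2, 33 at locus 3, 29 at locus 5 and 19 at the chr17 locus, against a median of 37 bp over the 263 shared regions. Reads of 50 bases that fall wholly within the near-identical genes can match several copies. The sources used here do not say how such reads were placed, so pileups may have been shared out or moved between copies.

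Several initiator genes had a further SOX4 region close by. Chr6 locus 2 was the most crowded, with several regions of all 3 lists within 2 kb, all towards lower coordinates. The nearest lay 189 bp away, with folds of 10.3, 10.4 and 6.45. Further regions had summits at −1357 to −1291 bp and −1938 to −1849 bp from the start, with folds of 7.22 to 9.12 and 7.61 to 10.7. In IP 2 the nearest neighbour was higher than the peak over the gene, so the highest peak within 500 bp gave a mean of 11.6 ± 2.15 (SD, n = 3) at this locus in place of 11.0. Chr6 locus 5 had a region of all 3 lists 749 bp away, with a mean fold of 6.78 ± 0.81 (SD, n = 3), and chr6 locus 7 one 174 bp away, at 7.01 ± 0.93. Chr6 locus 3 had a region of IP 3 alone 867 bp away on one side, at 6.68-fold, and one of all 3 lists 1967 bp away on the other, at 7.78 ± 0.97 (SD, n = 3). Chr6 loci 1 and 4 and the chr17 locus stood apart, with the nearest region 18.7 kb, 37.3 kb and 213.3 kb away. Of the 5 initiator regions of all 3 lists, 3 had another region within 2 kb, against 33.1% of the 263 shared regions.

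**Figure D3:**
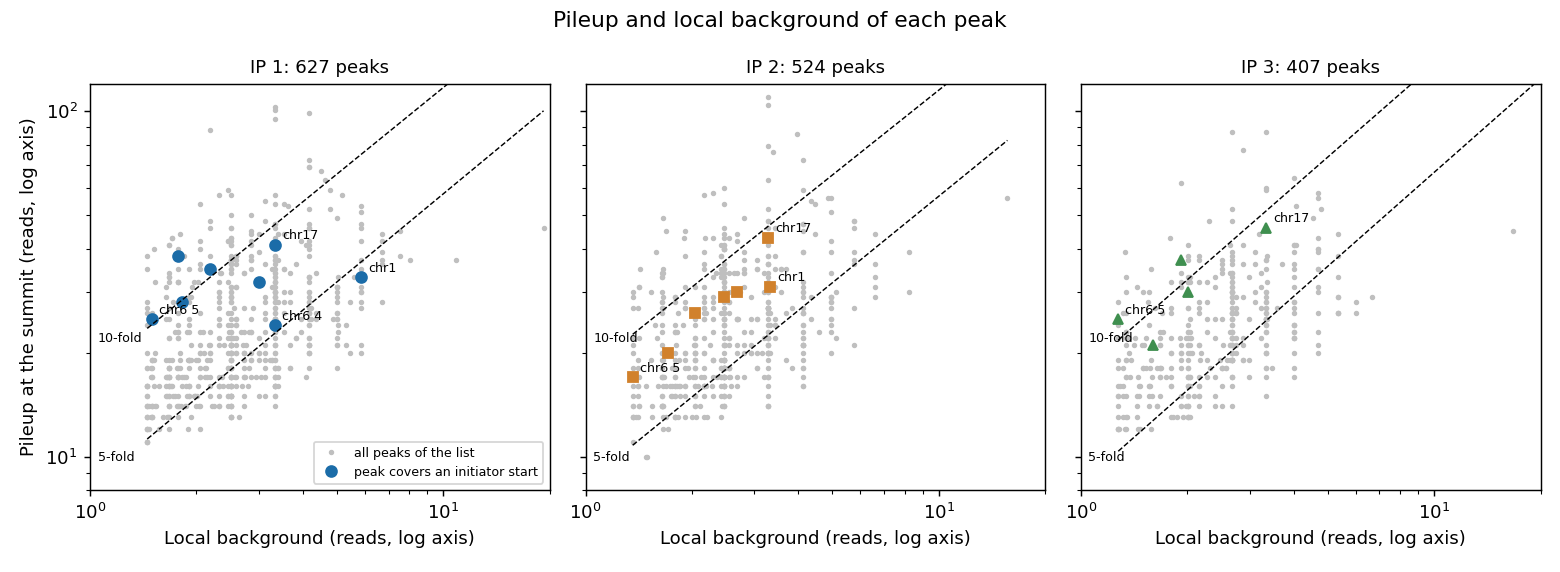
Pileup at the summit against local background (reads, log axes) for every peak of each list in grey, with the peaks over initiator gene starts in colour and dashed lines at 5-fold and 10-fold. The chr17 peaks have the most reads of the coloured points, chr6 locus 5 has the lowest background, and the chr1 peak of IP 1 falls just under the 5-fold line. Outside the axes lie 1, 1 and 3 peaks of IP 1, IP 2 and IP 3.

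Among the peaks of each list, those over initiator genes lay mostly in the upper part by fold without being the strongest. In IP 1, IP 2 and IP 3 their median folds were 9.97, 8.42 and 10.8, against 6.36, 6.52 and 6.91 for the whole lists, and 18 of the 20 were above the median of their own list. The upper quartile of the list held 5 of 8 in IP 1 (background 25.0% of peaks), 2 of 7 in IP 2 (25.2%) and 4 of 5 in IP 3 (25.3%). The best ranks by fold were 25th of 627, 79th of 524 and 18th of 407, and the highest folds of the lists were 28.0, 27.4 and 27.0, against 14.1, 10.2 and 13.0 over an initiator gene start. A −log10 q of 10 or more was reached by 6 of 8, 6 of 7 and 5 of 5 of these peaks, against 42.7%, 46.8% and 49.1% of each list. A background above the median of their list was found for 9 of the 20, close to the share of all peaks that a median sets.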

How the data were processed

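Single-end reads of 50 bases were sequenced, per the labels' protocols. Per the submitters' processing notes the tools included Bowtie2 2.3.3.1, Picard 2.10 and MACS2 2.1.1.20160309, on hg19. The authors, per the file headers, called peaks in each immunoprecipitation against the same input at a q of 0.05, on alignments named as filtered and without duplicates, with 24037735, 23683012 and 19228143 tags and 28755427 input tags. The deposited pileup is a signal in reads, the deposited fold enrichment is a ratio to local background, and the deposited −log10 p and −log10 q values come from a Poisson test.

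The local background was recovered from pileup and fold, and the Poisson tail it gives was within 0.000212 of each deposited −log10 p. Its multiple of the genome average is over the tags times the extension length divided by a genome of 2.7e+09 bp. Peaks that shared 1 bp or more were joined into merged regions. All 9 loci and the nearest region on each side are named. Reads needed for a call use the lowest −log10 p of a list. Intervals are exact 95% Poisson intervals, and they cover counting error only. They leave out variation between immunoprecipitations and error in the background. Any reads copied by PCR that the removal of duplicates missed would not be independent. Python 3.11.15 and scipy 1.17.1 were used, and the matching of peaks to loci was tested on simulated data. The loci and measures were chosen with earlier results of these data known, and peaks covering a start were singled out after the peaks had been seen. An hg19 genome and annotation were not used here, so the planned comparison with other tRNA genes and the motif search were not run and no sequence is given.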

Additional observations from a re-analysis of the deposited data

How the results depend on the processing

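The number of initiator genes with a peak in all 3 immunoprecipitations, 6 within 500 bp, was 5 with a window of 100 or 250 bp, at a −log10 q of 10 or more and when a peak had to cover the start (an alternative chosen after seeing the data), and 7 with 1000 bp, which brings in the second peak of the chr1 locus. It was 6 under the other alternatives. These include a −log10 q of 5 and a fold of 4, which every peak in the windows passed, so they could not change it. With 1 immunoprecipitation left out, genes with a peak in both other lists were counted. That count cannot be lower, and it was 6 to 7. Genes with any peak numbered 8, but 7 at a −log10 q of 10 or more and 7 without IP 1, the only list with a peak at chr6 locus 4. The median over genes of the mean fold, 9.32, lay between 9.01 and 9.80 when 1 immunoprecipitation was dropped. The median percentile by fold within a list, 81.5 for the highest peak in each window, was 75.2 by pileup, 75.7 by −log10 q and 78.7 for peaks over the start, and lay between 76.0 and 84.8 when 1 immunoprecipitation was dropped. No other window or choice of peak moved the mean fold of a gene by more than its SD. Leaving 1 immunoprecipitation out could not do so by arithmetic. Chr6 locus 4 has only 1 peak, so its value could not move. The immunoprecipitations could not be paired with the input, because only they have several samples and the 1 input has no list. The genes are paired within each immunoprecipitation, and no paired test between genes was run. Depth bounds what could be called, since the lowest pileups of the lists were 11, 10 and 12 reads.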
